A study of Mus musculus with 6 samples.

Results

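Mt1, Mt2 and Mt3 encode mouse metallothioneins, small cysteine-rich proteins that bind zinc and copper. The 3 genes were taken by symbol from the 31053 genes listed in each library, and all 3 were found. They had been chosen because their levels were high in the late gonadal epithelium, so the levels of that class by stage are given as a description. Levels were read in single-cell libraries made with the 10x Chromium 3′ version 2 kit after papain dissociation. The Induced D6 library held gonad somatic cells made from mouse embryonic stem cells (129svj x C57BL/6J) as aggregates in 3 steps of 2 days each. The media contained CHIR, BMP4 and EGF in the first step, BMP4, retinoic acid, PD0325901, SHH and EGF in the second, and BMP4 and FGF9 in the last. The other 5 libraries held XX gonads of ICR mouse embryos, 1 each for embryonic days E10.5, E11.5, E12.5, E13.5, E14.5. Each group is 1 library, the strain differs between Induced D6 and the embryos, and the number of embryos per library is not given in the sources used here. No difference below has a replicate check, no test was made, and all intervals are 95% intervals that cover counting error only.

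Metallothioneins buffer zinc and copper in the cytoplasm and take up metal when it is in excess. Mt1 and Mt2 are made in many tissues and are induced by zinc and other metals through the zinc-sensing transcription factor Mtf1, which binds short metal response elements in their promoters, and also by glucocorticoids and stress. Mt3 is best known from the brain and responds little to metals, and Mt4 is known from stratified squamous epithelium.

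The 4 metallothionein genes lie side by side on the plus strand of mouse chromosome 8 (GRCm38, GENCODE vM21), each with 3 exons in its first listed transcript. Mt4 (ENSMUSG00000031757) spans chr8:94137197-94139031, Mt3 (ENSMUSG00000031760) chr8:94152607-94154146, Mt2 (ENSMUSG00000031762) chr8:94172664-94173568 and Mt1 (ENSMUSG00000031765) chr8:94179082-94180327. Between Mt2 and Mt1 lie 5513 bases, between Mt3 and Mt2 18517 bases, and between Mt4 and Mt3 13575 bases. The promoter windows of the 3 members are shown because the pattern of Mt1 over cell classes and libraries was closer to that of Mt2 than to that of Mt3. Each is 300 bases long, from 250 bases before to 50 after the RefSeq start (GRCm38.p6, plus strand). The windows lie at chr8:94178839-94179138 for Mt1, chr8:94172368-94172667 for Mt2 and chr8:94152357-94152656 for Mt3. Capitals mark each match to TGCACNC or TGCGCNC, the core letters of a metal response element, on either strand.
Mt1 promoter: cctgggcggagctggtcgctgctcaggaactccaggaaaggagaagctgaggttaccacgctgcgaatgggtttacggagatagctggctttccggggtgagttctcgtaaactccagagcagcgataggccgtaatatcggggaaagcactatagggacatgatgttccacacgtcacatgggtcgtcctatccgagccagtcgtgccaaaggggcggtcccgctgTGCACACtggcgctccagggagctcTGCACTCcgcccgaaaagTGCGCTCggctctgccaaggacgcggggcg
Mt2 promoter: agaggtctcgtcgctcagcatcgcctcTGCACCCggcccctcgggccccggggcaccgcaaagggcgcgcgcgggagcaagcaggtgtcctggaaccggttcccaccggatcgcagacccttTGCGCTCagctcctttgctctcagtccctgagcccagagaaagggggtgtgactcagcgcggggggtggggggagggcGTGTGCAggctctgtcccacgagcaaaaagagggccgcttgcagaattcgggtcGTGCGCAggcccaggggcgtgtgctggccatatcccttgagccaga
Mt3 promoter: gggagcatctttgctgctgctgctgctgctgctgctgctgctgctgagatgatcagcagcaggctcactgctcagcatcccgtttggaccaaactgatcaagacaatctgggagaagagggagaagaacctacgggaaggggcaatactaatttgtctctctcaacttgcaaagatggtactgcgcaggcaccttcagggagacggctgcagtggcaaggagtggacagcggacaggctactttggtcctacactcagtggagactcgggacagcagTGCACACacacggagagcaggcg
The Mt1 window held 3 matches, with first bases at -23, 3 and 21 from the RefSeq start, so only the first lies upstream. The Mt2 window held 4, at -223, -128, -50 and 5. Of 32851 RefSeq promoter windows of the same length, 1.97% held at least 3 matches and 0.517% at least 4. The Mt3 window held 1 match, as did the Mt4 window, and 25.7% of all windows held at least 1. The median window was 52.7% G and C, against 60.7% for Mt1, 67.7% for Mt2 and 56.0% for Mt3. These are matches of letters and not measured binding sites. Counts and positions hold for the RefSeq starts used, which differ from the GENCODE starts. The Mt2 window ends at 94172667, close to the GENCODE start of that gene at 94172664. Windows set on other starts were not searched.

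The libraries held 37606947 to 52146419 UMIs (unique molecular identifiers, each standing for 1 captured transcript) in 2766 to 7564 barcodes, with medians of 6271 to 11864 UMIs per barcode. After filtering, 2661 to 7067 cells per library remained. E13.5 and E14.5 shared 114 barcodes, 2.44% of the smaller library, against 0.576% to 1.12% for the other pairs. Cell classes were rebuilt by clustering each library without Mt1 to Mt4 and naming clusters from marker genes, so names are written as "-like". The gonadal-epithelium-like class joins clusters named for the supporting lineage (the precursors of granulosa cells), the coelomic epithelium and the gonadal primordium. It is also given in 2 pieces, the supporting-lineage-like clusters and the other gonadal-epithelium-like clusters. The class held 3468 cells in Induced D6, and 491, 1441, 1822, 1892 and 1656 cells over the 5 stages. At E10.5 no cluster was named for the supporting lineage. Levels are UMIs of a gene per 1000000 UMIs of the class (CPM). In a sum over a whole library, fewer cells of a type and less RNA per cell cannot be told apart.

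Mt1 was higher at each later stage of the gonadal-epithelium-like class, with 7.55, 125, 211, 547 and 906 CPM over the 5 stages. The UMIs behind these levels numbered 28, 2756, 4438, 10179 and 12779. The E14.5 level was 120-fold that at E10.5 (interval 82.9 to 181), a log2 ratio of 6.91, with the median gene at -0.52. Among genes at 50 CPM or more in both classes the median log2 ratio was -0.34 here, -0.21 for supporting-lineage-like cells at E14.5 over E11.5 and 0.13 for Induced D6 over E12.5, the shifts that median-ratio scaling takes out. Most of the fold lay between E10.5 and E11.5, where the ratio was 16.6 (11.4 to 25), and later steps were 1.69-fold, 2.58-fold and 1.66-fold.

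Mt2, the close neighbour of Mt1, followed the same course with 1.08, 27.9, 73.0, 159 and 285 CPM. The E10.5 level rests on 4 UMIs, so the 264-fold ratio of E14.5 over E10.5 has an interval of 103 to 969. Against E11.5 the E14.5 level was 10.2-fold (9.37 to 11.1) for Mt2 and 7.25-fold (6.95 to 7.55) for Mt1.

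Mt3 was close to 0 before E12.5 and well counted from E13.5 on. It had 2, 4, 49, 640 and 573 UMIs in the class over the 5 stages, which is 0.539, 0.181, 2.33, 34.4 and 40.6 CPM. The step from E12.5 to E13.5 was the steepest of those resting on more than 4 UMIs, at 14.7-fold (11 to 20.1), and E14.5 was 1.18-fold E13.5 (1.05 to 1.32). No direction is read for that last step, since its log2 ratio of 0.24 became -0.90 with stricter cell filtering and -0.15 without the E14.5 cluster led by haemoglobin genes. Mt4, the remaining gene of the cluster, had 1 UMI in the whole class, at E11.5. Among 3414 genes at 50 CPM or more in either stage, 6.33% were at least 4-fold higher at E14.5 than at E10.5, and Mt1 and Mt2 were among them while Mt3 stayed under that level. Since the genes were chosen on this contrast, nothing is read from that count.

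**Figure D1:**
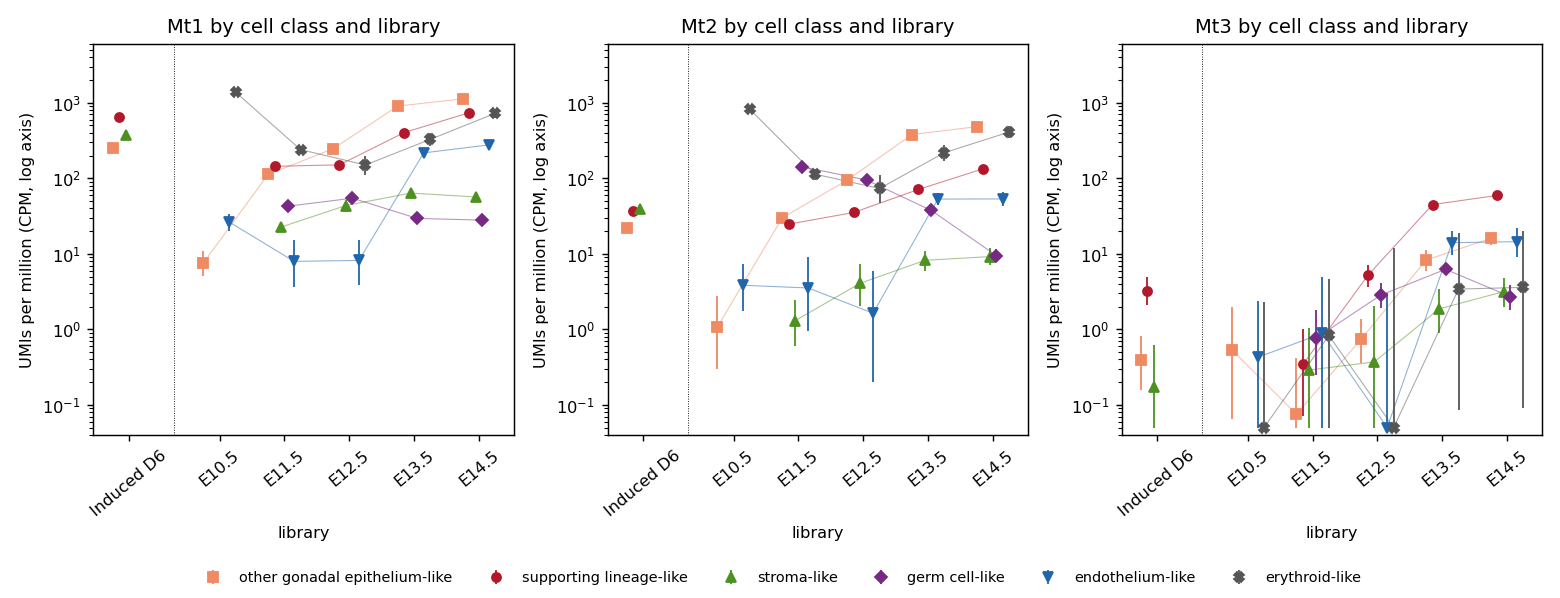
Level of Mt1, Mt2 and Mt3 in CPM (log axis) by library, with Induced D6 left of the dotted line and embryonic stages right of it. Points are sums over the cells of a class of at least 20 cells, bars are 95% Poisson intervals, and points on the lower edge are at 0. Mt1 and Mt2 are high in both epithelial pieces and in erythroid-like cells, and Mt3 is highest in supporting-lineage-like cells (44.8 CPM at E13.5 and 59.4 CPM at E14.5).

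Within the supporting-lineage-like cells, which include the future granulosa cells, Mt1 had 144, 151, 404 and 738 CPM over the 4 stages that start with E11.5. At these stages Mt2 had 24.7, 35.2, 71.1 and 134 CPM, and Mt3 0.343, 5.17, 44.8 and 59.4 CPM. All 3 were at least 4-fold higher at E14.5 than at E11.5, as were 2.45% of the 3061 genes compared. The ratios were 5.13 (4.82 to 5.45) for Mt1, 5.41 (4.67 to 6.29) for Mt2 and 173 (58.8 to 842) for Mt3, which had 475 UMIs at E14.5 and 3 at E11.5. These cells are part of the class the genes were chosen on, so nothing further is read from the count. Which clusters bear the name changes these sizes. At E14.5, 257 of the 1182 cells formed a cluster led by Cst12 and Gng13, with the lowest Foxl2 level of these clusters. It held 704 of the 1069 Mt2 UMIs and 2538 of the 5903 Mt1 UMIs. Its Mt2 level was 339 CPM, against 29.4 to 79.7 CPM in the other supporting-lineage-like clusters of that stage. An E13.5 cluster with Cst12 and Gng13 among its leading genes, at 298 CPM of Mt2, was counted with the other gonadal-epithelium-like cells. The step from E13.5 to E14.5 thus compares unlike sets of clusters, and no direction is read for Mt2 there. Ratios without the 257 cells were not computed. For Mt2, each of the other clusters lay less than 4-fold above the 24.7 CPM of E11.5. The 4-fold call for Mt2 therefore rests on the cluster of 257 cells. For Mt1 the other clusters had 275 to 741 CPM, against 144 CPM at E11.5, and the call holds only for the class as named. With no doublets removed, the log2 ratios were 1.76 for Mt1 and 0.85 for Mt2, against 2.36 and 2.43 as reported, and with the metallothioneins among the clustering genes they were 1.77 and 1.38. In cells thinned to 3000 UMIs, Mt3 had none at E11.5 and its log2 ratio was at least 4.97, and with stricter cell filtering it was 5.67, against 7.43 as reported.

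The 2 pieces of the epithelium held the 3 genes in different proportions. At E14.5, Mt1 had 1126 CPM in the other gonadal-epithelium-like cells and 738 CPM in the supporting-lineage-like cells, a ratio of 1.53 (1.47 to 1.58). Mt2 had 482 CPM in the other cells and 134 CPM in the supporting-lineage-like cells, a ratio of 3.61 (3.37 to 3.88). Mt3 ran the opposite way, with 16.0 CPM in the other cells and 59.4 CPM in the supporting-lineage-like cells, 3.70-fold lower in the other cells (2.97 to 4.65). None of the 3 passed 4-fold at E14.5, where 1.11% of genes were higher and 0.555% lower in the other cells. These other cells join a cluster of 405 cells, with 31 Mt3 UMIs at 7.3 CPM, and a cluster of 69 cells. The smaller cluster held 67 Mt3 UMIs at 36.2 CPM, with 133 CPM of Foxl2 and 50.3 CPM of Upk3b. Its place in this piece makes the Mt3 difference smaller. Its cells carried more UMIs each, on average, than those of the cluster of 405 cells, and whether doublets remain in it was not tested. At E13.5 the other cells were 2.24-fold higher for Mt1, 5.33-fold higher for Mt2 and 5.44-fold lower for Mt3. There 0.821% of genes were 4-fold or more higher and 1.25% lower. A cluster with Cst12, Gng13 and 2210407C18Rik among its leading genes was counted with the other cells at E13.5. At E14.5 such a cluster was counted with the supporting-lineage-like cells, so the ratios of these 2 stages are not ranked. At E11.5 the ratios of the other over the supporting-lineage-like cells were 0.782 (0.725 to 0.843) for Mt1 and 1.21 (1.03 to 1.44) for Mt2. Mt3 had 1 and 3 UMIs there, too few for a ratio.

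Single clusters showed the same opposition more sharply. The E14.5 cluster led by Upk3b, Igfbp2, Lgals2, Tm4sf5 and Tmem151a held 405 cells with 1414 CPM of Mt1, 640 CPM of Mt2 and 7.27 CPM of Mt3. Upk3b encodes a uroplakin made by mesothelium, and this cluster is coelomic-epithelium-like. The E14.5 cluster with Foxl2, Akr1cl and Aard as its leading genes held 312 cells with 275 CPM of Mt1, 29.4 CPM of Mt2 and 76.8 CPM of Mt3. Foxl2 is a transcription factor of the ovarian supporting lineage. A further supporting-lineage-like cluster, led by Cst12, Gng13, Pglyrp1, Bmp2 and 2210407C18Rik with 257 cells, stood between them with 1221 CPM of Mt1, 339 CPM of Mt2 and 24.1 CPM of Mt3. At E13.5 a cluster of 196 cells with 2210407C18Rik, Cst12, Gng13, Cst8 and Ccdc61 as leading genes was counted with the other gonadal-epithelium-like cells, and had 835 CPM of Mt1, 298 CPM of Mt2 and 13.48 CPM of Mt3. The E14.5 cluster led by Hbb-y and Hba-x, which are embryonic haemoglobin genes, held 420 cells with 741 CPM of Mt1, 78.7 CPM of Mt2 and 76.1 CPM of Mt3. Erythroid marker genes summed to 1503 CPM in the E14.5 gonadal-epithelium-like class, with none of 11 at 0, and to 239 CPM with 3 of 11 at 0 at E10.5. Without that cluster, the log2 ratios of E14.5 over E10.5 were 6.98 for Mt1, 8.30 for Mt2 and 5.84 for Mt3.

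**Figure D2:**
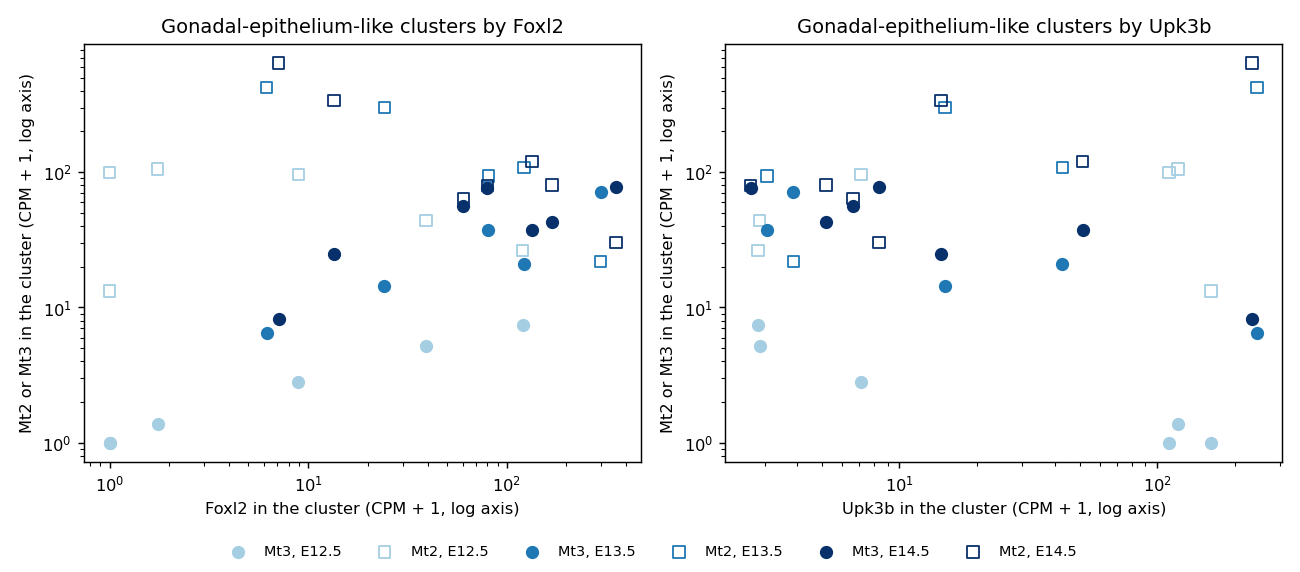
Mt2 (open squares) and Mt3 (filled circles) in each gonadal-epithelium-like cluster in the 3 libraries after E11.5, against the cluster's Foxl2 level (left) and Upk3b level (right), all in CPM + 1 on log axes. At E14.5 the cluster with 640 CPM of Mt2 has 7.27 CPM of Mt3, and the cluster with 76.8 CPM of Mt3 has 29.4 CPM of Mt2.

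The same opposition was read without cluster names, by splitting all kept cells of a library on a UMI of 1 gene. Cells of any class with such a UMI are included, so these levels are not those of the epithelium alone. At E14.5, 438 cells with a Upk3b UMI and no Foxl2 UMI had 1098 CPM of Mt1, 489 CPM of Mt2 and 5.22 CPM of Mt3. The 629 cells with a Foxl2 UMI and no Upk3b UMI had 365 CPM of Mt1, 49.5 CPM of Mt2 and 58.7 CPM of Mt3. The Upk3b cells had a median of 9310.5 UMIs per cell and the Foxl2 cells 6520. At E13.5 the Upk3b cells had 573 CPM of Mt1, 263 CPM of Mt2 and 5.64 CPM of Mt3, and the Foxl2 cells 301 CPM of Mt1, 53.5 CPM of Mt2 and 46.2 CPM of Mt3. At E11.5 the Mt1 levels of the Upk3b cells and the Foxl2 cells were within counting error of each other, at 118 CPM (111 to 126) and 121 CPM (109 to 134). Mt3 had 6.84 CPM in the Foxl2 cells at E12.5 and 0.337 CPM, from 1 UMI, at E11.5.

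**Figure D3:**
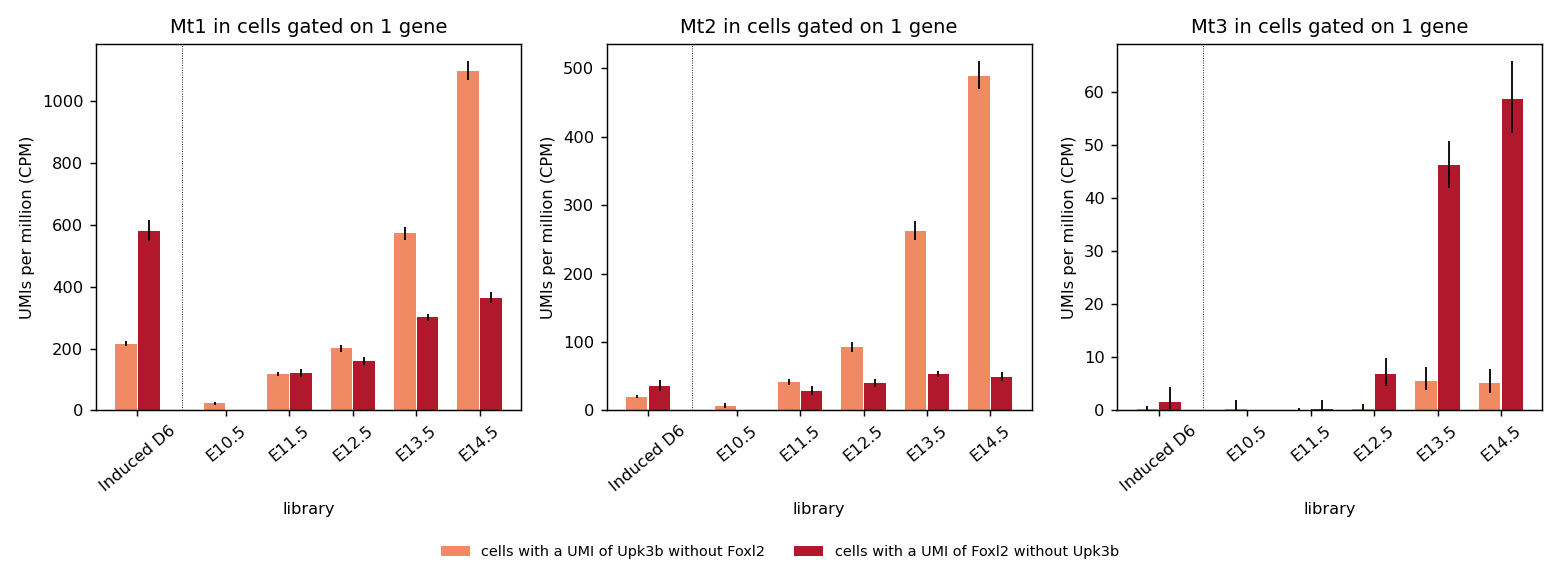
Mt1, Mt2 and Mt3 in CPM (linear axis from 0) in cells with a Upk3b UMI and no Foxl2 UMI (light bars) and in cells with a Foxl2 UMI and no Upk3b UMI (dark bars), by library, with 95% Poisson intervals. At E14.5 the light bars are higher for Mt1 and Mt2 (1098 and 489 CPM) and the dark bar is higher for Mt3 (58.7 CPM), while in Induced D6 the dark bar is higher for Mt1 (581 CPM). E10.5 has no dark bar, since fewer than 20 cells carried a Foxl2 UMI.

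In the same E14.5 library, stroma-like cells (the interstitial mesenchyme) had far lower levels than the gonadal-epithelium-like cells. Mt1 had 906 CPM in the epithelium and 56.6 CPM in the stroma, a ratio of 16.0 (14.4 to 17.8). The ratio was 31.0 (24.1 to 40.6) for Mt2 and 12.9 (8.33 to 20.9) for Mt3. Of the 2819 genes at 50 CPM or more in either class, 3.83% were at least 4-fold higher in the epithelium, with Mt1 and Mt2 among them and Mt3 under that level. The E14.5 epithelium had also been used to choose the genes. With stricter cell filtering the log2 ratio was 2.11 for Mt3, against 3.68 as reported. Mt1 and Mt2 were also higher in stroma-like cells at E14.5 than at E11.5, by 2.5-fold (2.07 to 3.04) for Mt1 and 7.04-fold (3.47 to 16.1) for Mt2, where 0.872% of genes were at least 4-fold higher. Mt2 rests on 61 UMIs at E14.5 and 9 at E11.5. Foxl2 moved with them in stroma-like cells, with 9.78 CPM at E14.5 and 0.145 CPM at E11.5. Of 10 supporting-lineage markers 5 reached 10 CPM in the stroma at E14.5, with a sum of 323 CPM and none at 0, and 4 at E11.5, with a sum of 162 CPM and Irx5 at 0. Their part in the stromal difference was not tested.

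Germ cells went the other way for Mt2, and less clearly for Mt1. Mt2 in germ-cell-like cells had 143, 94.8, 37.5 and 9.49 CPM over the 4 stages that start with E11.5, on 937, 969, 758 and 105 UMIs. The E14.5 level was 15-fold lower than at E11.5 (12.3 to 18.6), and 11.6% of the 3702 genes compared in this class were at least 4-fold lower. Mt1 had 42.6, 54.5, 29.4 and 27.9 CPM, 1.53-fold lower at E14.5 than at E11.5 (1.29 to 1.80). In cells thinned to 3000 UMIs, the share with an Mt1 UMI was 8.03%, 12.9%, 7.53% and 8.58%. By that measure Mt1 was not lower at E14.5 than at E11.5. Mt3 had 0.761, 2.84, 6.23 and 2.71 CPM, a low level that was highest at E13.5 with 126 UMIs. Foxl2, which germ cells are not known to make, had 0.0978 CPM in the germ-cell-like cells at E12.5, from 1 UMI, and 2.52 CPM at E13.5, from 51 UMIs. In supporting-lineage-like cells Foxl2 had 73.5 CPM at E12.5 and 161 CPM at E13.5, against Mt3 levels of 5.17 and 44.8 CPM. The log2 ratio of Mt3 at E14.5 over E11.5 was 1.83 from all UMIs and -0.59 in cells thinned to 3000 UMIs, so no direction is read for Mt3 here.

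The balance of Mt1 and Mt2 differed between cell classes. The number of Mt2 UMIs per Mt1 UMI was 3.35, 1.74, 1.27 and 0.340 in germ-cell-like cells over those 4 stages. It lay at 0.172, 0.234, 0.176 and 0.181 in supporting-lineage-like cells, at 0.266, 0.384, 0.420 and 0.429 in the other gonadal-epithelium-like cells and at 0.0577, 0.0932, 0.129 and 0.162 in stroma-like cells. The supporting-lineage-like value at E14.5 joins unlike clusters. The cluster led by Cst12 and Gng13 held 704 Mt2 and 2538 Mt1 UMIs, and the cluster of 420 cells held 238 and 2242. At E13.5 such a Cst12 cluster was counted with the other cells, so no course is read for the 2 epithelial pieces. Mt2 UMIs outnumbered Mt1 UMIs in germ-cell-like cells at E11.5 to E13.5. They also did so in the 100 mesonephric-duct-like or tubule-like cells at E10.5, with 63 Mt2 and 44 Mt1 UMIs, a balance of 1.43 whose interval of 0.959 to 2.15 includes equality. Erythroid-like cells held 0.594 at E10.5 and 0.474 to 0.667 later. In Induced D6 the balance was 0.0566 in supporting-lineage-like cells, 0.0873 in the other gonadal-epithelium-like cells and 0.103 in stroma-like cells. Counts of this 3′ assay are not scaled to gene length, so the balance is compared between classes only.

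**Figure D4:**
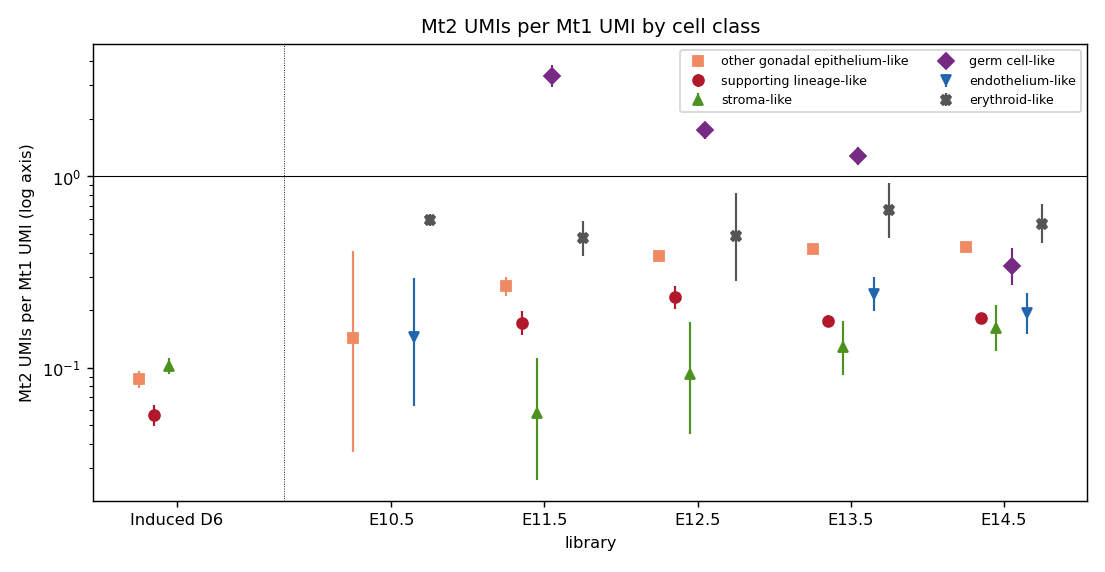
Mt2 UMIs per Mt1 UMI (log axis) by class and library, with Induced D6 left of the dotted line, exact 95% intervals and a line at equal numbers. Germ-cell-like cells lie above the line at E11.5 to E13.5 (3.35, 1.74 and 1.27) and below it at E14.5 (0.340).

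Endothelium-like cells had 276 CPM of Mt1 at E14.5 and 7.94 CPM at E11.5, a ratio of 34.8 (18.2 to 76.7) from 420 and 9 UMIs. Supporting-lineage markers moved with it, since 9 of 10 reached 10 CPM in this class at E14.5 with a sum of 1163 CPM and none at 0. At E11.5, 2 of 10 did, with a sum of 133 CPM and with Fst, Wnt6 and Gng13 at 0. Of the 71 endothelium-like cells at E14.5, the 27 with a Foxl2 or Fst UMI had 361 CPM of Mt1, and the 44 without had 28.4 CPM (14.2 to 50.8). On average the 27 cells carried more UMIs each than the 44, so the split also sorts cells by depth. Whether doublets are among the 27 was not tested. Without the cells that carried such UMIs, the log2 ratio of E14.5 over E11.5 was 1.88 for Mt1, against 5.12 with them, and 1.42 for Mt2, against 3.92.

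Erythroid-like and leukocyte-like cells held Mt1 and Mt2 but next to no Mt3. At E10.5 the 115 erythroid-like cells held 1375 CPM of Mt1 and 817 CPM of Mt2, with no Mt3 UMI. They carried 2197 of the 3236 Mt1 UMIs of that library, and 91.2% of them had an Mt1 UMI at 3000 UMIs per cell, against 2.05% of gonadal-epithelium-like cells. Their Mt1 level at E11.5, E12.5, E13.5 and E14.5 was 240, 150, 327 and 722 CPM, from 78, 23, 24 and 30 cells. The E14.5 cluster was led by Hbb-bt, Hba-a1, Hbb-bs and Hba-a2 and had 43.1 CPM of the embryonic haemoglobin gene Hbb-y, which was among the leading genes at each earlier stage. Supporting-lineage markers summed to 180 CPM in the E14.5 cluster with Irx5 and Nr0b1 at 0, and to 12.51 CPM in the E10.5 cluster with Foxl2, Gng13 and Nr0b1 at 0. The leukocyte-like cells were few. At E10.5 they numbered 15, with 338 CPM of Mt1 and 18.0 CPM of Mt2. From E11.5 on their number was 58, 9, 17 and 21, with 219, 1497, 3585 and 4322 CPM of Mt1 and 26.6, 395, 851 and 919 CPM of Mt2. The highest count in a cell was 286 Mt1 UMIs, in an E14.5 leukocyte-like cell, out of 677 in all such cells of that library. Summed over the whole library, the ratio of E14.5 over E10.5 was 5.66 (5.45 to 5.88) for Mt1 and 3.10 (2.93 to 3.27) for Mt2, against 72.6 (40.3 to 146) for Mt3.

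Detection in single cells followed the levels. Thinned to 3000 UMIs, 62.1% (59.7 to 64.5) of 1555 gonadal-epithelium-like cells at E14.5 had an Mt1 UMI, 24.0% an Mt2 UMI and 10.2% an Mt3 UMI. Without thinning these shares were 75.1%, 34.8% and 20.1%, and 101 shallower cells were left out by it. In stroma-like cells of the same library the thinned shares were 13.3%, 1.98% and 0.834%, and germ-cell-like cells had 8.58%, 2.48% and 0.667%. Free RNA gives UMIs in any class, and the median depths were 7189 UMIs per gonadal-epithelium-like cell, 5787 per stroma-like cell and 9837 per germ-cell-like cell. Mt1 and Mt2 were often found in the same cells, with an Mt1 UMI in 90.6% of the 373 thinned cells that had an Mt2 UMI and in 53.1% of those that had none. Mt1 was found in 48.1% of the 158 cells with an Mt3 UMI and in 63.7% of those without. These cells share 1 library and 1 depth, and Pearson's r on log2 counts was 0.584 for Mt1 with Mt2 and -0.11 for Mt1 with Mt3.

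The gonadal-epithelium-like class of Induced D6 had more Mt1 and less Mt2 and Mt3 than that of E12.5. Mt1 had 367 CPM, against 211 CPM at E12.5, a ratio of 1.73 (1.67 to 1.80) with the median gene at a log2 ratio of 0.23. The log2 ratio ranged from 0.42 with finer clusters to 1.0 in thinned cells, around the reported 0.79. Mt2 had 26.3 CPM in Induced D6 and 73.0 CPM at E12.5, which is 2.77-fold lower in Induced D6 (2.53 to 3.04). Mt3 had 1.21 CPM in Induced D6 and 2.33 CPM at E12.5, from 30 and 49 UMIs, 1.93-fold lower (1.2 to 3.15). None of the 3 passed 4-fold, where 2.6% of 3271 genes were higher and 0.917% lower. Against E14.5, Induced D6 was 2.47-fold lower for Mt1, 10.8-fold lower for Mt2 and 33.6-fold lower for Mt3. Mt2 was higher in some unnamed Induced D6 clusters, at 144 CPM in a cluster of 233 cells and 122 CPM in one of 237 cells.

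The order of the epithelial pieces in Induced D6 matched that at E11.5 for Mt1 and not the later stages. For Mt2 it did not match E11.5, since the other cells were lower in Induced D6 (log2 ratio -0.73) and higher at E11.5. Split on UMIs of Upk3b and Foxl2, Induced D6 cells had 216 and 581 CPM of Mt1. The same split at E11.5 gave 118 and 121 CPM, within counting error of each other. Mt1 had 255 CPM in the other gonadal-epithelium-like cells and 649 CPM in the supporting-lineage-like cells, 2.55-fold lower in the other cells (2.44 to 2.66), and the other cells were also lower at E11.5 (a ratio of 0.782), but 1.63-fold higher at E12.5 and 1.53-fold higher at E14.5. Stroma-like cells had 377 CPM of Mt1 in Induced D6 and 43.6 CPM at E12.5, a ratio of 8.65 (7.2 to 10.47), where 2.12% of genes were at least 4-fold higher. Mt2 in stroma-like cells had 38.7 CPM in Induced D6 and 4.06 CPM at E12.5, a ratio of 9.52 (5.27 to 19.2). The epithelium over stroma ratio of Mt1 within Induced D6 was 0.972 (0.938 to 1.01). Supporting-lineage-like cells had 36.7 CPM of Mt2 in Induced D6 and 35.2 CPM at E12.5, a ratio whose interval of 0.876 to 1.24 includes equality and whose log2 value of 0.06 was -0.47 with finer clusters and -0.48 with stricter cell filtering. Genes of the hypoxia list moved with Mt1 there. In the gonadal-epithelium-like class 7 of 10 tested members were at least 2-fold higher in Induced D6 than at E12.5, where 11.1% of all genes were, and none was 2-fold lower, where 3.55% were. The largest were Ndrg1 at 9.96-fold and Bnip3, a mitochondrial autophagy receptor, at 7.18-fold, and the list's median log2 ratio was 1.5. In stroma-like cells 11 of 11 tested members were at least 2-fold higher, against 11.8% of all genes. Of 8 tested genes of the oxidative stress list 2 were at least 2-fold higher in the epithelium, Hmox1, which breaks down haem, at 3.31-fold and the glutathione reductase gene Gsr at 2.14-fold. The part of these genes in the Mt1 difference was not tested.

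Mtf1, the zinc sensor, stayed at a low and even level. It had 19.1 CPM in the Induced D6 gonadal-epithelium-like class, and 17.5, 16.8, 15.7, 14.3 and 15.7 CPM over the 5 stages. None of 10 zinc exporters reached 50 CPM at E14.5 or E10.5. Of 14 zinc importers 2 reached it, with Slc39a1 4.04-fold higher at E14.5 than at E10.5 and Slc39a7 2.33-fold lower, against a background of 12.7% of all genes 2-fold higher and 32% lower. Of 4 copper genes tested 1 was higher, the copper chaperone Atox1 at 2.06-fold. Of the 11 genes of the glucocorticoid list 2 reached 50 CPM, and both were higher, Errfi1 at 4.22-fold and Fkbp5, a co-chaperone of the glucocorticoid receptor, at 3.02-fold. The others lay below that level and went both ways. Hsd11b2, which inactivates glucocorticoids, had 2.91 CPM at E14.5 and 30.7 CPM at E10.5, and Zbtb16 had 0.425 and 5.39 CPM. Higher at E14.5 than at E10.5 were Klf9 (18.7 and 4.58 CPM), Nr3c1 (17.0 and 7.82), Per1 (10.6 and 3.78) and Sgk1 (5.10 and 2.16). Tsc22d3 had 33.0 and 35.6 CPM, Pdk4 1.42 and 0 CPM, and Hsd11b1 0 and 0.809 CPM. Of 6 tested genes of the oxidative stress list, the thioredoxin system genes Txnrd1 and Txn1 were lower, by 3.64-fold and 3.11-fold, and none was higher. This share of lower genes is close to the 32% over all genes.

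Immediate early and heat shock genes, which also respond to dissociation, moved with the stage difference. At E14.5, 12 of 15 tested members were at least 2-fold higher than at E10.5 in the gonadal-epithelium-like class and 1 was lower, where 12.7% of all genes were higher and 32% lower. Their median log2 ratio was 2.39, against -0.52 over all genes. Nr4a1 was 19.7-fold and Junb 15.8-fold higher. In stroma-like cells, 9 of 13 were at least 2-fold higher at E14.5 than at E11.5, against 3.43% of all genes. Within the E14.5 library, 2 of 15 were at least 2-fold higher in the epithelium than in the stroma and 1 was lower, where 8.76% of all genes were higher and 9.19% lower, while Mt1 was 16.0-fold higher. Atf3, a stress-induced transcription factor, was 5.96-fold higher in the epithelium there and Junb 2.23-fold lower. Their part in the stage difference was not tested. Of 4 tested hypoxia genes 3 were at least 2-fold lower at E14.5 than at E10.5 in the epithelium, where 32% of all genes were, with Ldha, which makes lactate, 4.27-fold lower.

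Genes beside the metallothioneins on chromosome 8 did not share their course. In the gonadal-epithelium-like class Nudt21, a pre-mRNA cleavage factor gene, had 171 CPM at E14.5 and 279 CPM at E10.5. Bbs2 had 3.40 and 4.58 CPM and Ogfod1 6.52 and 4.31 CPM at these stages. Nup93, a nuclear pore gene downstream of Mt1, had 6.31 CPM at E14.5 and 50.7 CPM at E10.5, which is 8.04-fold lower at E14.5. Herpud1 had 16.5 CPM at E14.5 and 26.2 CPM at E10.5, and Slc12a3 had 2 UMIs at E14.5 and none at E10.5.

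The genes whose pattern was most like each member were found by Pearson's r on log2(CPM + 10) over 56 class sums of all 6 libraries, among 7782 genes. Sums of 1 library share its depth and stage. For Mt1 the closest was Mt2 at 0.849, then Ucp2 at 0.754, C1qtnf4 at 0.711, Smim1 at 0.709 and Tspo at 0.701. For Mt2 they were Mt1, Cited4 at 0.682, Tspo at 0.607 and Sdc4 at 0.604. For Mt3 they were Thbs2 at 0.912, Pld5 at 0.898, Spink4 at 0.866, Gm15543 at 0.852, Gng13 at 0.850, Defb19 at 0.831, Lgr5 at 0.810 and Foxl2 at 0.802. The likeness of Mt3 to its chromosomal neighbours was lower, 0.447 to Mt1 and 0.389 to Mt2. Thbs2, a matrix glycoprotein gene, had 2.29, 7.81, 56.4 and 72.4 CPM in supporting-lineage-like cells over the 4 stages, and Lgr5, a receptor for R-spondins, 8.47, 12.8, 53.2 and 75.4 CPM.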

How the data were processed

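The authors deposited UMI counts, whole numbers without normalization, for each gene in each barcode. The submitters' processing notes name Cell Ranger 3.0.2 and the mm10 build, and how cells were called was not stated. Barcodes needed 500 genes and no more than 10% mitochondrial UMIs. Doublets were scored with Scrublet (scanpy 1.11.5). The automatic threshold marked only 0.0160% at E10.5, so the top-scored cells were removed at 0.8% per 1000 cells. Each library was clustered alone (2000 variable genes without Mt1 to Mt4, 30 components, 15 neighbours, Leiden resolution 1). A cluster was named from 23 marker sets when at least 3 markers and 33.3% of a set were at least 1.5-fold above the other clusters and found in 10% of its cells.

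UMIs of all cells in a class were added up and scaled to CPM. Levels have exact Poisson intervals, ratios exact conditional binomial intervals and shares of cells Clopper-Pearson intervals (scipy 1.17.1). A gene at 0 was set to a floor of 3 counts, and no ratio was made where both classes had 3 counts or fewer. A ratio on 1 to 3 counts depends on that small number. Genome-wide shares use genes at 50 CPM or more in either class, with 4-fold as the call for the members and 2-fold for list genes. Named genes were the 4 metallothioneins and Mtf1, up to 4 list members per comparison with the largest ratios, the 10 genes most like each member, 3 genes on each side of the cluster, the leading genes of clusters described (1 is not reported here), and the gating genes Foxl2, Upk3b, Lgr5 and Nr2f2. Glucocorticoid list genes below 50 CPM are named in addition to this rule. The ratio code was tested on simulated data. The members, the gene lists and the tests were chosen with earlier results of these data known.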

Additional observations from a re-analysis of the deposited data

Results flagged for a closer look

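Between E11.5 and E14.5, the CPM of Mt1 and Mt2 moved one way in germ-cell-like cells and the opposite way in gonadal-epithelium-like cells. The log2 ratio of E14.5 over E11.5 was -0.61 for Mt1 and -3.91 for Mt2 in germ-cell-like cells, and 2.86 for Mt1 and 3.35 for Mt2 in gonadal-epithelium-like cells. The share of germ-cell-like cells with an Mt1 UMI, thinned to 3000 UMIs, was 8.03% at E11.5 and 8.58% at E14.5, so Mt1 was not lower by that measure. With 1 library per stage the difference between the classes was not tested.

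The ratio of the other gonadal-epithelium-like over the supporting-lineage-like cells had opposite signs in Induced D6 and at E14.5. It was -1.35 for Mt1 and -0.73 for Mt2 in Induced D6, against 0.61 for Mt1 and 1.85 for Mt2 at E14.5, on the log2 scale. This difference was not tested either.

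Mt1 was also high in clusters that no comparison uses. An unnamed E13.5 cluster of 59 cells, led by Cd74, Tbata, H2-Aa, Ccl21a and H2-Ab1, had 1881 CPM of Mt1 and a median of 1189 UMIs per cell. An unnamed E14.5 cluster of 43 cells with Tbata, Cd74, H2-Aa, Ccl21a and H2-Eb1 as leading genes had 2400 CPM, with a median of 1287 UMIs per cell.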

How the results depend on the processing

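No paired analysis was possible because each group is 1 library and no test was made. For the 12 ratios of the 4 main comparisons, 135 values under other settings kept the sign of the reported value; 107 lay within its counting interval and 28 did not. For Mt1 in Induced D6 over E12.5 (log2 0.79) these were 0.88 and 0.42 at Leiden resolutions 0.5 and 2, 0.62 with stricter filtering (1000 genes, 5% mitochondrial), 1.0 in thinned cells, 0.94 as a mean of per-cell CPM, 0.67 with median-ratio scaling, 0.73 with no doublets removed and 0.62 without mitochondrial, ribosomal and haemoglobin genes in the total. For Mt2 there (-1.47) they were -1.25 thinned, -1.29 per cell and -1.65 with the reduced total. For the epithelium over stroma at E14.5, Mt1 (4.0) had 3.83 with stricter filtering and 3.84 with no doublets removed, and Mt3 (3.68) had 2.11 with stricter filtering. For supporting-lineage-like cells at E14.5 over E11.5, Mt1 (2.36) had 2.25 at resolution 2, 1.77 with metallothioneins in the clustering, 2.02 with stricter filtering, 2.19 per cell, 2.57 with median-ratio scaling, 1.76 with no doublets removed and 2.57 with the reduced total. Mt2 (2.43) had 1.38 with metallothioneins in the clustering, 2.71 with stricter filtering, 2.19 per cell, 0.85 with no doublets removed and 2.76 without the cluster led by haemoglobin genes, a setting added after seeing the data. Mt3 (7.43) had 5.67 with stricter filtering and 4.97 thinned. Leaving out barcodes shared by E13.5 and E14.5, or epithelial clusters of over 2 times the median depth, both added later, kept every main ratio within its interval. The share of cells with a UMI at E14.5 was 48.7% for Mt1, 18.1% for Mt2 and 5.87% for Mt3 at 1500 UMIs per cell. The share of genes at least 4-fold higher was 4.89%, 5.93% and 5.95% when every gene with a count was used, in Induced D6 over E12.5, epithelium over stroma and supporting-lineage-like cells. Of 546 values for the other ratios, 376 lay within the reported interval, 169 did not, 66 moved by over 1.5-fold and 533 kept the sign. The one change of sign from a ratio of 2-fold or more was Mt3 in germ-cell-like cells, at -0.59 when thinned. The rest were Mt1 of epithelium over stroma within Induced D6, Mt2 and Mt3 in supporting-lineage-like cells of Induced D6 over E12.5, and Mt3 in the epithelium at E14.5 over E13.5. The causes were not tested. Low counts limit Mt3 before E12.5, where 3 or fewer UMIs stand behind several classes.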
